A study of Mus musculus with 11 samples.

Results

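The mitochondrial respiratory chain and ATP synthase were examined through the 113 genes that encode their subunits and the complex I assembly factors sharing the Nduf prefix, of 32868 named genes in the table. Members were chosen by symbol alone: 100 nuclear genes (symbols that begin with Nduf, Uqcr or Atp5, the Cox4 to Cox8 subunits, the Sdh genes Sdha to Sdhd, and Cyc1) and the 13 protein-coding genes of mitochondrial DNA, listed in the table as ND1 to ND6 with ND4L, CYTB, COX1 to COX3, ATP6 and ATP8. The symbols, not measured values, define the members, although the set was taken up with earlier results of these data known. The 4 pseudogene symbols ending in -ps were left out.

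RNA was sequenced in bulk from sorted primary fibroblasts of neonatal mouse lung in 11 libraries, 5 of genotype PAD2KO and 6 of genotype WT. By their label, PAD2KO cells lack peptidylarginine deiminase 2, the enzyme that turns arginine residues of proteins into citrulline. Batch 1, as the labels name it, held PAD2KO 1 to 3 with WT 1, WT 3 and WT 4, and batch 2 held PAD2KO 6 and PAD2KO 7 with WT 5 to 7. The strain, the type of Padi2 allele, the sorting gate, the age beyond neonatal and any TNF treatment are not given in the sources used here, nor whether libraries of a group came from separate animals, so p-values measure the spread between these libraries only.

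Complexes I and II pass electrons from NADH and succinate to ubiquinone, complex III passes them to cytochrome c, and complex IV passes them to oxygen; I, III and IV pump protons, and complex V uses the proton gradient to make ATP. Complex II is encoded wholly in the nucleus, while the other complexes join subunits made from both genomes. The mitochondrial genes are transcribed as long joint RNAs that are cut into mRNAs, so their levels share a source, and each nuclear gene has a promoter of its own. Each of the 13 mitochondrial genes is called an mRNA here, although overlapping genes can lie on the same RNA. Fibroblasts of the lung build the matrix of the alveolar wall and draw ATP from this chain as well as from glycolysis.

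The libraries held 962633 (WT 7) to 1421243 (PAD2KO 2) counts on named genes, of which Rn18s took 8.52 to 12.1%. Fibroblast markers summed to 10032 to 22839 CPM (counts scaled to library size), although Tcf21 was at 0 to 18.5 CPM and Lum at 1.56 to 14.4 CPM. The epithelial genes Sftpc, Scgb1a1 and Nkx2-1 and the cardiac muscle genes Myh6 and Myl2 were at 0 in all 11 libraries. Other markers of those lists were detected, such as Krt18 (10.6 to 37.9 CPM), Krt8 (0 to 5.64 CPM) and Acta1 (0.725 to 9.35 CPM). Mesothelial markers summed to 39.4 to 335.1 CPM. Padi2 had 0 to 4 counts a library in either genotype and so cannot check the labels. Libraries also differed by batch across the whole transcriptome: between batches, 17.4% of 10731 tested genes differed in PAD2KO and 21.6% in WT at an adjusted p under 0.05, so genotypes were compared within each batch.

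By median abundance per length, the 13 mitochondrial mRNAs were far above the nuclear members, although the ranges overlapped. The deposited TPM, which scale counts to transcript length and library total, had a median over mRNAs of 3153 (range 189.1 to 12694, means of 11 libraries), against a median of 262.9 (range 10.1 to 1078) over the 89 nuclear members that passed the count filter. ATP8, a small subunit of the proton channel, came first with 12694 TPM and held 25.5 to 29.5% of the mitochondrial TPM in every library. It is also the shortest of the 13 genes, at 204 bases, and TPM of so short a gene depend strongly on its effective length. Its rank over ATP6, which it overlaps, therefore need not mean more RNA. ATP6, the channel's large subunit, had 7972 TPM, and ND1, a membrane subunit of complex I, had 5916 TPM. ND6, the only protein gene on the other strand, and ND2 were lowest, at 189 and 307 TPM.

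Neighbouring genes overlap on this compact genome, which limits how far single mRNAs can be read apart. In GENCODE M21 (GRCm38), ATP8 (chrM:7766-7969) and ATP6 (chrM:7927-8607) share 43 bases, ND4L and ND4 share 7, and ND5 and ND6 share 14 on opposite strands. None of the sources says whether counting used strand, so reads of ND6 and of RNA antisense to it cannot be told apart. A second limit is that nuclear DNA holds pasted-in copies of mitochondrial sequence. Of the 13 mRNAs, 5 (ATP6, COX2, COX3, ND4 and ND4L) have an annotated nuclear pseudogene on chromosome 1 whose whole transcript is identical to a stretch of the mitochondrial one. The ND4L transcript (chrM:9877-10173, plus strand, GRCm38) is shown because it makes this plain: capitals mark the 294 of its 297 bases that the pseudogene Gm10222 repeats without a difference.
ND4L: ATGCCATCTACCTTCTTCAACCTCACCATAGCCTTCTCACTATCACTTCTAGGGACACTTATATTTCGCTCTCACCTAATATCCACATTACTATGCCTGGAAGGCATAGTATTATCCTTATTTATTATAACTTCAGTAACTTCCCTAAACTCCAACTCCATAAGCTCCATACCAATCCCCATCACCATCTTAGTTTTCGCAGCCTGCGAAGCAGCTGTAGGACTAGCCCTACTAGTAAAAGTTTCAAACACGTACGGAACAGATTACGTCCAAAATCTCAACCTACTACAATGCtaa

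In some libraries, counts of such a gene were low where those of a copy, or of an entry with no symbol, were high. ND4L had 0 counts in WT 7, the library where Gm10222 had 241, and Gm10222 was at 0 in every other library except WT 5, with 43.1. COX3, a core subunit of complex IV, had 58.7 counts in PAD2KO 2, against 581.1 to 1557 in the other 10 libraries. An entry with no symbol and nearly the same effective length (548.1 bases, against 551.0 for COX3) held 1150.0 counts in PAD2KO 2, 374 in WT 1, 158 in WT 3, 142 in WT 5 and 0 in the others. With that entry added, COX3 in PAD2KO 2 came to 1209 counts, within the 581.1 to 1557 of the other libraries. That entry was picked, among those with no symbol, for being high in PAD2KO 2, so its high value there was fixed by the choice. Whether it shares sequence with COX3 was not tested. The pseudogene Atp6-ps held 141 counts in PAD2KO 1, 202 in WT 4 and 265 in WT 7, against 1403 to 4918 for ATP6 itself over all libraries. Values of COX3, ND4L and ATP6 are therefore uncertain in single libraries. Counts on the identical copies of COX2 and ND4, and on nearly identical ones of ND3 and of part of COX1, were not examined. Those genes are thus not known to be free of this limit.

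**Figure D1:**
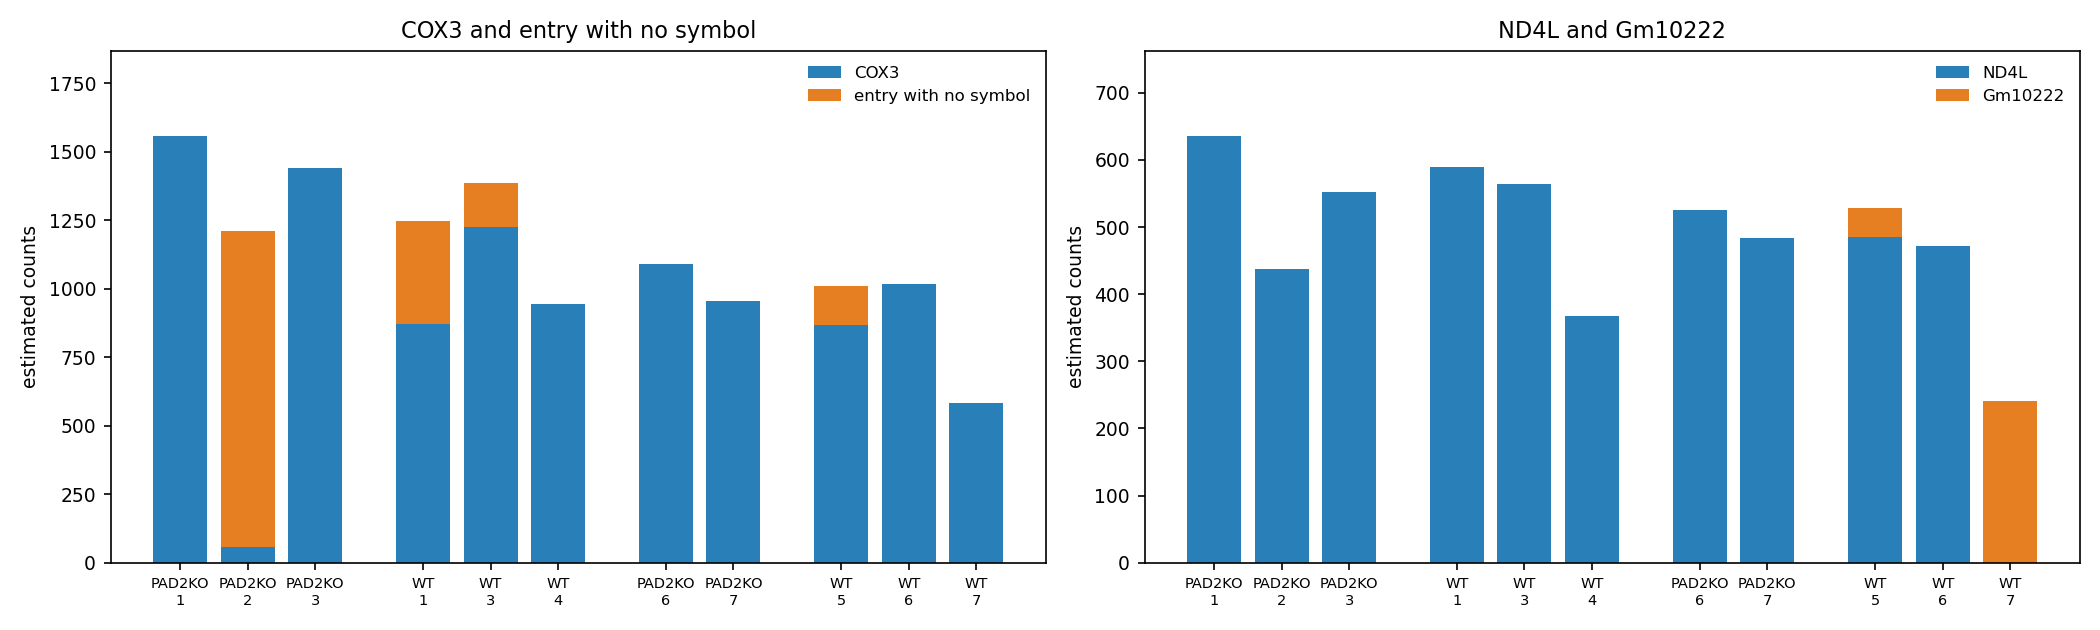
Estimated counts (vertical axis) of COX3 with the entry that has no symbol (left) and of ND4L with the pseudogene Gm10222 (right), stacked, for each library, PAD2KO left of WT in each batch. COX3 is nearly empty in PAD2KO 2 and ND4L is empty in WT 7, and the other entry is at its highest in that library. The entry with no symbol was picked for being high in PAD2KO 2.

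The share of counts on mitochondrial mRNAs varied widely within every group, and the nuclear share did not. In batch 1 the mitochondrial mRNAs took 2.43, 1.51 and 2.28% in PAD2KO, against 2.19, 1.95 and 1.52% in WT, as a percent of the counts on named genes. In batch 2 they took 2.14 and 1.84% in PAD2KO, against 1.86, 1.91 and 1.21% in WT. (Within a group, values run in the order of the library numbers.) The groups overlapped in both batches, since PAD2KO 2 lay beside WT 4, the lowest WT library of batch 1, and PAD2KO 7 lay under WT 5 and WT 6. As group means, the share was 2.08 ± 0.499% in PAD2KO and 1.88 ± 0.338% in WT of batch 1 (SD, n = 3 each), and 1.99 ± 0.218% in PAD2KO (n = 2) and 1.66 ± 0.391% in WT (n = 3) of batch 2. In bulk samples, fewer cells of a type and less RNA per cell cannot be told apart.

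The 100 nuclear members took a nearly constant share instead. It was 1.13, 1.17 and 1.16% in PAD2KO, against 1.11, 1.09 and 1.17% in WT of batch 1. In batch 2 it was 1.07 and 1.10% in PAD2KO, against 1.12, 1.11 and 1.15% in WT. Over all 11 libraries the nuclear share ran from 1.07 to 1.17% and the mitochondrial share from 1.21 to 2.43%. The ratio of mitochondrial to nuclear counts was highest in PAD2KO 1, at 2.15, and lowest in WT 7, at 1.05.

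**Figure D2:**
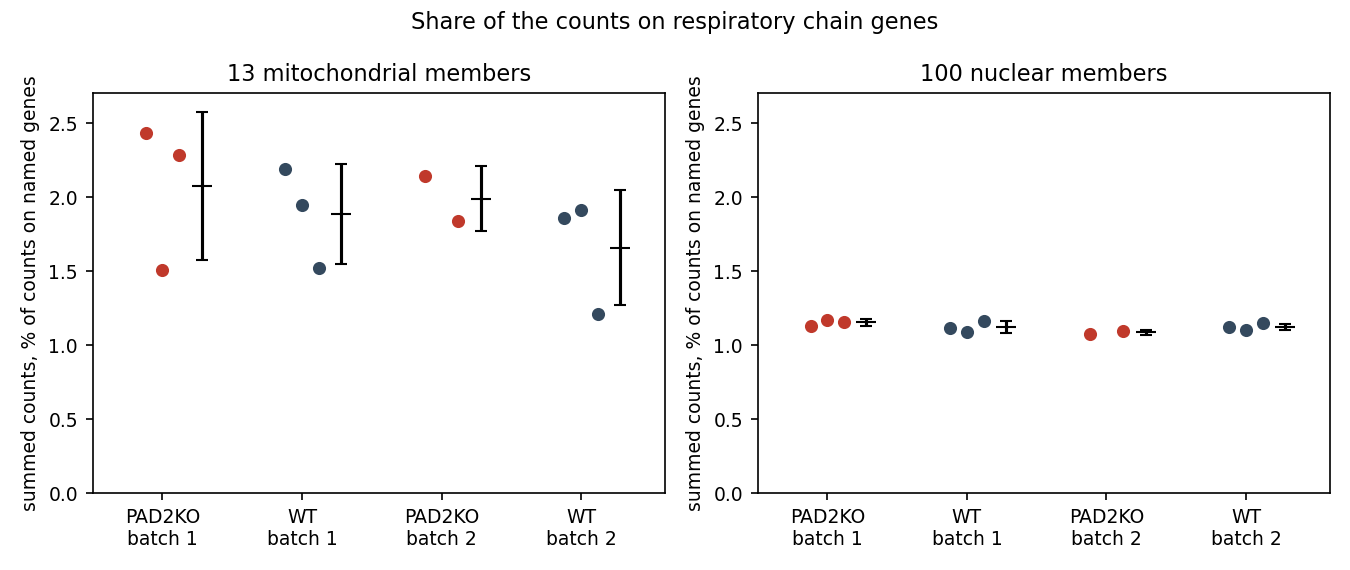
Summed counts as a percent of the counts on named genes (vertical axis, from 0) for the 13 mitochondrial members (left) and the 100 nuclear members (right); points are libraries, bars are mean ± SD. Nuclear shares stay between 1.07 and 1.17%, while mitochondrial shares run from 1.21 to 2.43% with overlapping genotypes.

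Measured per gene within the 4 groups, the residual SD of log2 CPM had a median of 0.37 over the 13 mitochondrial mRNAs and 0.15 over the 89 tested nuclear members. Without COX3 and ND4L the mitochondrial median was 0.36. Over all 10731 tested genes it was 0.25, and over the 4164 of them at least as abundant as the lowest mitochondrial member it was 0.17. The nuclear median lay under both of these values and the mitochondrial median above both. Salmon's effective lengths moved too: that of ATP6 was 449, 455, 441, 439 and 444 bases in PAD2KO 1, 2, 3, 6 and 7, against 442, 442, 465, 449.7, 445 and 468 bases in WT 1, 3, 4, 5, 6 and 7. It was longest in WT 7, WT 4 and PAD2KO 2, the libraries with the lowest mitochondrial shares, and its part in those shares was not tested.

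**Figure D3:**
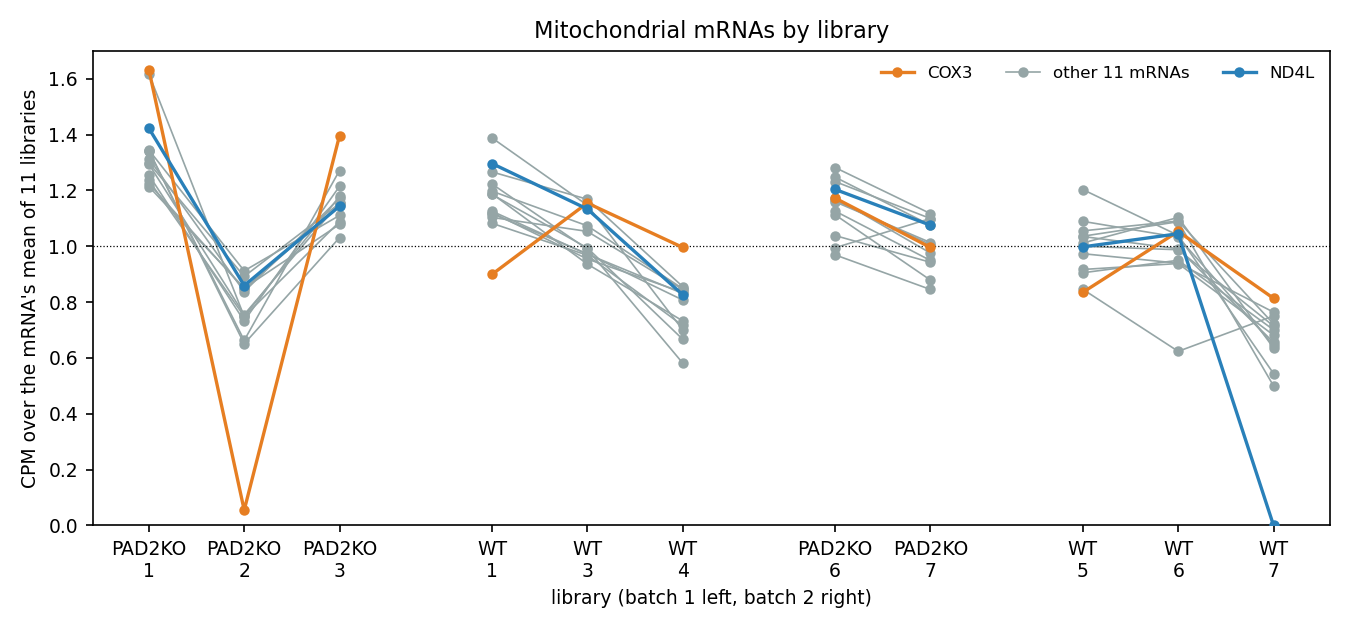
CPM of each mitochondrial mRNA divided by its own mean over 11 libraries (vertical axis), by library; lines join the values of an mRNA within a group. Apart from COX3 and ND4L, the mRNAs sit low together in PAD2KO 2, WT 4 and WT 7 and high together in PAD2KO 1.

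No mitochondrial mRNA differed between PAD2KO and WT past the threshold in either batch. Of the 13, 0 were called in batch 1, where 0.112% of all tested genes were called, and 0 in batch 2, where 2.92% were (edgeR's quasi-likelihood test, Benjamini-Hochberg adjusted p under 0.05); at an unadjusted p under 0.05 there were 0 in each, and DESeq2 called 0 in each. All 13 log2 fold changes of PAD2KO over WT were above 0 in both batches. Their median was 0.11 in batch 1 (range 0.01 to 0.19) and 0.27 in batch 2 (range 0.06 to 0.71), against -0.0014 and -0.0064 over all tested genes. The 13 mRNAs vary together within groups, so their signs are not independent of each other. The common sign rested on single libraries: without PAD2KO 1, 5 of 13 stayed above 0 in batch 1 (median -0.04), without WT 4, 6 did (median -0.01), and without WT 7, 11 of 13 did in batch 2 (median 0.12). Without PAD2KO 2 the batch 1 median was 0.34 and without WT 1 it was 0.29; without PAD2KO 6 the batch 2 median was 0.17, with 11 of 13 above 0.

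Of the 13 mitochondrial members, 7 belong to complex I. ND1, which lines the ubiquinone site, had 4394, 2662 and 4191 CPM in PAD2KO, against 3848, 3441 and 2546 CPM in WT of batch 1, with a log2 fold change of 0.19 ± 0.28 (SE). In batch 2 it had 4435 and 3825 CPM in PAD2KO, against 3597, 3922 and 2259.7 CPM in WT, a fold change of 0.34 ± 0.31. The genotypes overlapped in both batches, and in batch 2 WT 6 lay above PAD2KO 7. ND5, the proton-pumping subunit at the far end of the membrane arm, had 1832 and 1663 CPM in PAD2KO, against 1617, 1655 and 1202 CPM in WT of batch 2. Those groups did not overlap, but the fold change of 0.23 ± 0.18 was not called (adjusted p = 0.651).

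ND6, a complex I membrane subunit, gave the highest fold change of batch 2 after ND4L. It had 46.2 and 51.1 CPM in PAD2KO, against 39.3, 29.0 and 34.9 CPM in WT of batch 2, groups that did not overlap, and 75.2, 34.8 and 50.6 CPM in PAD2KO, against 64.5, 53.3 and 32.6 CPM in WT of batch 1, groups that did. The log2 fold changes were 0.50 ± 0.31 in batch 2 (adjusted p = 0.528) and 0.08 ± 0.26 in batch 1 (adjusted p = 0.997). ND2, ND3 and ND4, membrane subunits as well, lay at 0.17, 0.10 and 0.18 in batch 1 and at 0.25, 0.34 and 0.22 in batch 2, all with overlapping libraries. ND4L, at 0.07 and 0.71, takes its batch 2 value from the empty WT 7; with Gm10222 added it was 0.25.

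CYTB, the cytochrome b at the core of complex III, had 2918, 2018 and 2737 CPM in PAD2KO, against 2669.5, 2274 and 1989.9 CPM in WT of batch 1. In batch 2 it had 2775 and 2397 CPM in PAD2KO, against 2382, 2353 and 1702 CPM in WT, and PAD2KO 7 exceeded WT 5 by a narrow margin. Its log2 fold changes were 0.15 ± 0.16 and 0.27 ± 0.18 (adjusted p = 0.972 and 0.573). For complex IV, COX1, the catalytic subunit with the oxygen site, had 4524, 3108 and 4019 CPM in PAD2KO, against 4413, 4072 and 2982 CPM in WT of batch 1, and 3377 and 2945 CPM in PAD2KO, against 3154, 3310.0 and 2441 CPM in WT of batch 2. COX1 and COX2 showed the smallest fold changes of the mRNAs in batch 2, 0.09 and 0.06. COX3 was at 0.01 in batch 1 and became 0.21 once the unnamed entry was added.

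The complex V pair read alike. ATP6 had 3723, 2173 and 3603 CPM in PAD2KO, against 3517, 2949 and 1979 CPM in WT of batch 1 and 3654 and 3261 CPM in PAD2KO, against 3073, 3227 and 1482 CPM in WT of batch 2, where the groups did not overlap. ATP8, whose groups overlapped in both batches, had 885, 517 and 791 CPM in PAD2KO, against 813, 640.4 and 501 CPM in WT of batch 1 and 793 and 693 CPM in PAD2KO, against 745, 706 and 442 CPM in WT of batch 2. Log2 fold changes were 0.17 ± 0.36 and 0.41 ± 0.40 for ATP6, and 0.16 ± 0.28 and 0.23 ± 0.31 for ATP8. Across the 13 mRNAs, 0 had groups free of overlap in batch 1 and 5 (ATP6, CYTB, ND4L, ND5 and ND6) in batch 2, all higher in PAD2KO in CPM, against 15.2% of all tested genes that were higher in this way with 2 libraries against 3. With Gm10222 added, ND4L overlapped too, at 426 and 380.3 CPM in PAD2KO, against 385, 369 and 254 CPM in WT, which leaves 4. The median SE of a fold change was 0.28 in batch 1 and 0.31 in batch 2, which sets the size of difference that could be seen.

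Nuclear members were almost level between genotypes. Of the 89 tested, 0 were called in batch 1 and 1 was called in batch 2, Ndufa6, lower in PAD2KO; 0.0932% and 1.64% of all tested genes were lower past the threshold in these batches, and 0.0186% and 1.28% were higher. At an unadjusted p under 0.05, 3 members were higher and 0 lower in batch 1, and 0 higher and 5 lower in batch 2, against 5.34% and 13.97% of all tested genes in either direction. The median log2 fold change of PAD2KO over WT was 0.02 in batch 1, with 50 of 89 above 0, and -0.07 in batch 2, with 31 of 89 above 0. Groups free of overlap were counted for 7 of 89 in batch 1 (6 higher in PAD2KO, 1 lower), against 11.4% of all tested genes (5.51% higher, 5.9% lower). In batch 2 they were counted for 18 of 89 (7 higher, 11 lower), against 30.6% of all tested genes (15.2% higher, 15.4% lower). The difference between batches was called for 0 of the 102 members of both genomes (1.44% of all tested genes, 0.596% higher and 0.848% lower), 3 of them having an unadjusted p under 0.05; DESeq2 called 0 as well. The fit of both batches together called 0 of 102 too (0.158% of all tested genes, 0.0186% higher and 0.14% lower), as did DESeq2, with 3 at an unadjusted p under 0.05.

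By complex, the summed TPM of the nuclear genes of complex I were 8903, 9378 and 8807 in PAD2KO, against 8859, 8939 and 8891 in WT of batch 1, and 8131 and 7616 in PAD2KO, against 8164, 7946 and 7846 in WT of batch 2. The genotypes overlapped in both batches. Complex IV summed to 7823, 7793 and 8204 in PAD2KO, against 7940.1, 7391 and 8085 in WT of batch 1, and to 6702 and 7068 in PAD2KO, against 7114, 7346 and 7075 in WT of batch 2. It overlapped in batch 1, while in batch 2 both PAD2KO libraries lay under all WT libraries, PAD2KO 7 by a narrow margin under WT 7. Complex V summed to 7423, 7779 and 7499 in PAD2KO, against 7389, 7401 and 8000.3 in WT of batch 1, and to 7167 and 7072 in PAD2KO, against 7599, 7392 and 7656 in WT of batch 2, where both PAD2KO libraries again lay under all WT libraries. Complex III stayed between 2813 and 3403 TPM and complex II between 503 and 642 TPM over the 11 libraries.

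**Figure D4:**
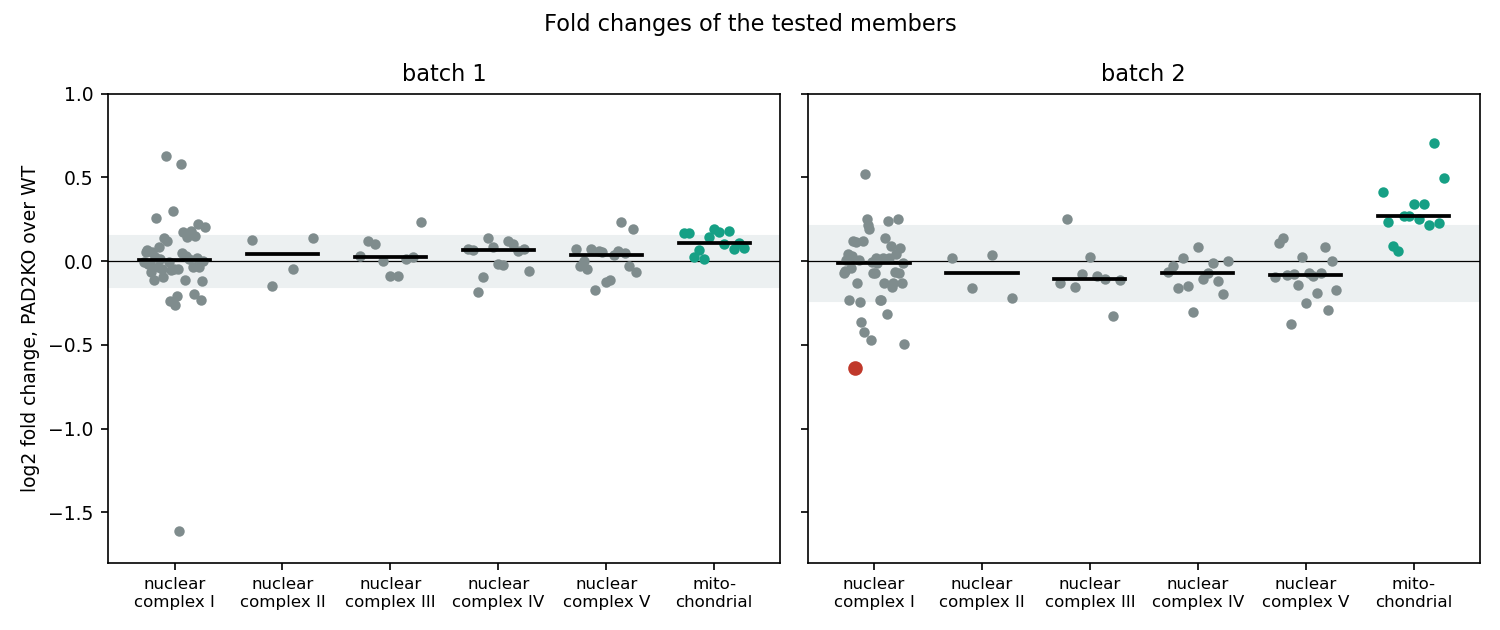
Log2 fold change of PAD2KO over WT (vertical axis) of each tested member in batch 1 (left) and batch 2 (right), by nuclear complex and for the mitochondrial genome; bars are medians, the grey band is the interquartile range of all 10731 tested genes and red marks Ndufa6, called in batch 2. Nuclear medians lie between -0.11 and 0.07; Ndufb4b, fitted at 6.23 in batch 2 against WT libraries all at 0, is off the axis.

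Ndufa6, an accessory subunit of complex I at the joint of its arms that binds an acyl carrier protein, was the single nuclear member past the threshold. It had 95.7 and 84.9 CPM in PAD2KO, against 139.7, 153 and 127 CPM in WT of batch 2, and every PAD2KO library lay under every WT library. The log2 fold change was -0.64 ± 0.14 (SE; edgeR adjusted p = 0.0113). In batch 1 it had 124, 108 and 96.7 CPM in PAD2KO, against 108, 107 and 108 CPM in WT, with overlapping groups and a fold change of 0.02 ± 0.13. The difference between the batches, -0.66 ± 0.19, did not pass (adjusted p = 0.0862). WT of batch 2 stood out from WT of batch 1 as well, higher by 0.38 ± 0.12 on the log2 scale (adjusted p = 0.0259). That call was lost in 7 of 18 alternatives, which were DESeq2's test, length offsets, and leaving out WT 1, WT 3, WT 4, WT 5 or WT 6 in turn (adjusted p from 0.0146 to 0.135 over the 18). PAD2KO of batch 2 against batch 1 gave -0.28 ± 0.14 (adjusted p = 0.203). The genotype call of batch 2 was lost without PAD2KO 7 (-0.55, adjusted p = 0.285), without WT 6 (-0.57, adjusted p = 0.0580) and with length offsets (-0.66, adjusted p = 0.107).

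Smooth muscle markers also differed between the same libraries: all 6 of 6 listed were present, and they summed to 3962 to 4993 CPM in PAD2KO, against 1467 to 1894 CPM in WT of batch 2. In batch 1 they summed to 4996 to 7807 CPM in PAD2KO, against 6769 to 7141 CPM in WT. The 7 leukocyte markers summed to 44.1 to 75.1 CPM in PAD2KO, against 39.2 to 222.3 CPM in WT of batch 2, with overlap. Dio2, detected alone among 4 brown adipocyte markers (Ucp1, Cidea and Adipoq were at 0), had 34.0 to 87.2 CPM in PAD2KO, against 390.9 to 418.6 CPM in WT of batch 2. Their part in the Ndufa6 result was not tested. The promoter of Ndufa6 (RefSeq, GRCm38.p6, chr15:82354242-82354541, minus strand, a window around the annotated start) is printed as that of the called member, with capitals for the only match to the NRF1 motif (GCGC, any base, then TGCGC) on either strand. NRF1 is a transcription factor known for activating nuclear respiratory chain genes.
Ndufa6 promoter: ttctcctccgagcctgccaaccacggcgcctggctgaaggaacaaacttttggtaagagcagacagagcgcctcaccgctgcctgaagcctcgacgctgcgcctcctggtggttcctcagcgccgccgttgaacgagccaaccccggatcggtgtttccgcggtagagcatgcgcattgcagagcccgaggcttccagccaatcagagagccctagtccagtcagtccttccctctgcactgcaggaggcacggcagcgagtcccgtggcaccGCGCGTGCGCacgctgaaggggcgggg

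Promoter tables held 82 windows for 77 of the 100 nuclear members. This motif was in 24.4% of them, against 4.60% of all 32851 promoters, and the ETS motif CCGGAAG, which the respiratory factor NRF2 (GABP) reads, was in 22.0%, against 8.86% of all promoters. Both strands were searched, and a match describes letters in the window, not binding. Sdha, the flavoprotein of complex II, had the NRF1 motif 3 times (chr13:74350191-74350490, minus strand). Its window is shown for those matches, which are in capitals. Sdha, Atp5f1e and Ndufv3 were called between batches in PAD2KO, as given further on. The windows of Atp5f1e and Ndufv3 held no NRF1 match, and that of Atp5f1e held 1 ETS match.
Sdha promoter: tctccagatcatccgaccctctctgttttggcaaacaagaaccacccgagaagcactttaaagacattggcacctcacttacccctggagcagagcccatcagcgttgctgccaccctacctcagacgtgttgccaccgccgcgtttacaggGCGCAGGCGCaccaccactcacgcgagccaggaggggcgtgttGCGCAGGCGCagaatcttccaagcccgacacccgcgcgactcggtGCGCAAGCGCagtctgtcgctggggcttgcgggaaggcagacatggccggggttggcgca

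Among the other complex I subunits, the 7 nuclear core subunits, which carry the electrons, had a median of -0.04 in batch 1 and -0.07 in batch 2. The lowest in batch 1 was Ndufs8, an iron-sulphur subunit, with 66.5, 61.9 and 52.0 CPM in PAD2KO, against 61.4, 79.6 and 70.7 CPM in WT; the fold change was -0.24 ± 0.16 in batch 1 and 0.08 ± 0.19 in batch 2. Ndufs3, a core subunit near the ubiquinone site, had -0.20 and -0.13. Neither was called (adjusted p = 0.941 and 0.963 in batch 1).

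The 30 accessory subunits had medians of 0.02 and -0.03. Ndufa7, the nuclear complex I gene with the highest level (522 TPM), had 135, 129 and 127 CPM in PAD2KO, against 113, 116 and 97.7 CPM in WT of batch 1 and 115 and 121 CPM in PAD2KO, against 111, 106 and 109.9 CPM in WT of batch 2. Its groups did not overlap in either batch, with PAD2KO the higher, but the fold changes of 0.26 ± 0.12 and 0.11 ± 0.13 were not called (adjusted p = 0.862 and 0.787). Ndufb10, of the membrane arm, stood at 0.30 ± 0.14 in batch 1 and -0.01 ± 0.16 in batch 2, and was called in neither.

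Ndufv3, an accessory subunit of the NADH-binding module, was low in the same PAD2KO libraries but did not pass the test. It had 64.9 and 57.4 CPM in PAD2KO, against 92.4, 86.9 and 78.2 CPM in WT of batch 2, groups that did not overlap in CPM but did in TPM, and 102, 91.1 and 76.9 CPM in PAD2KO, against 73.1, 77.5 and 84.2 CPM in WT of batch 1, where PAD2KO 3 lay inside the WT range. The fold changes were -0.50 ± 0.17 in batch 2 (adjusted p = 0.111) and 0.20 ± 0.14 in batch 1 (adjusted p = 0.941). Ndufb9, of the membrane arm, had 109 and 108 CPM in PAD2KO, against 135, 132 and 139 CPM in WT of batch 2, again free of overlap, with a fold change of -0.31 ± 0.14 (adjusted p = 0.274) and 0.14 ± 0.12 in batch 1. Ndufc1, a small membrane subunit, lay at 0.24 in batch 2 with overlapping libraries.

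**Figure D5:**
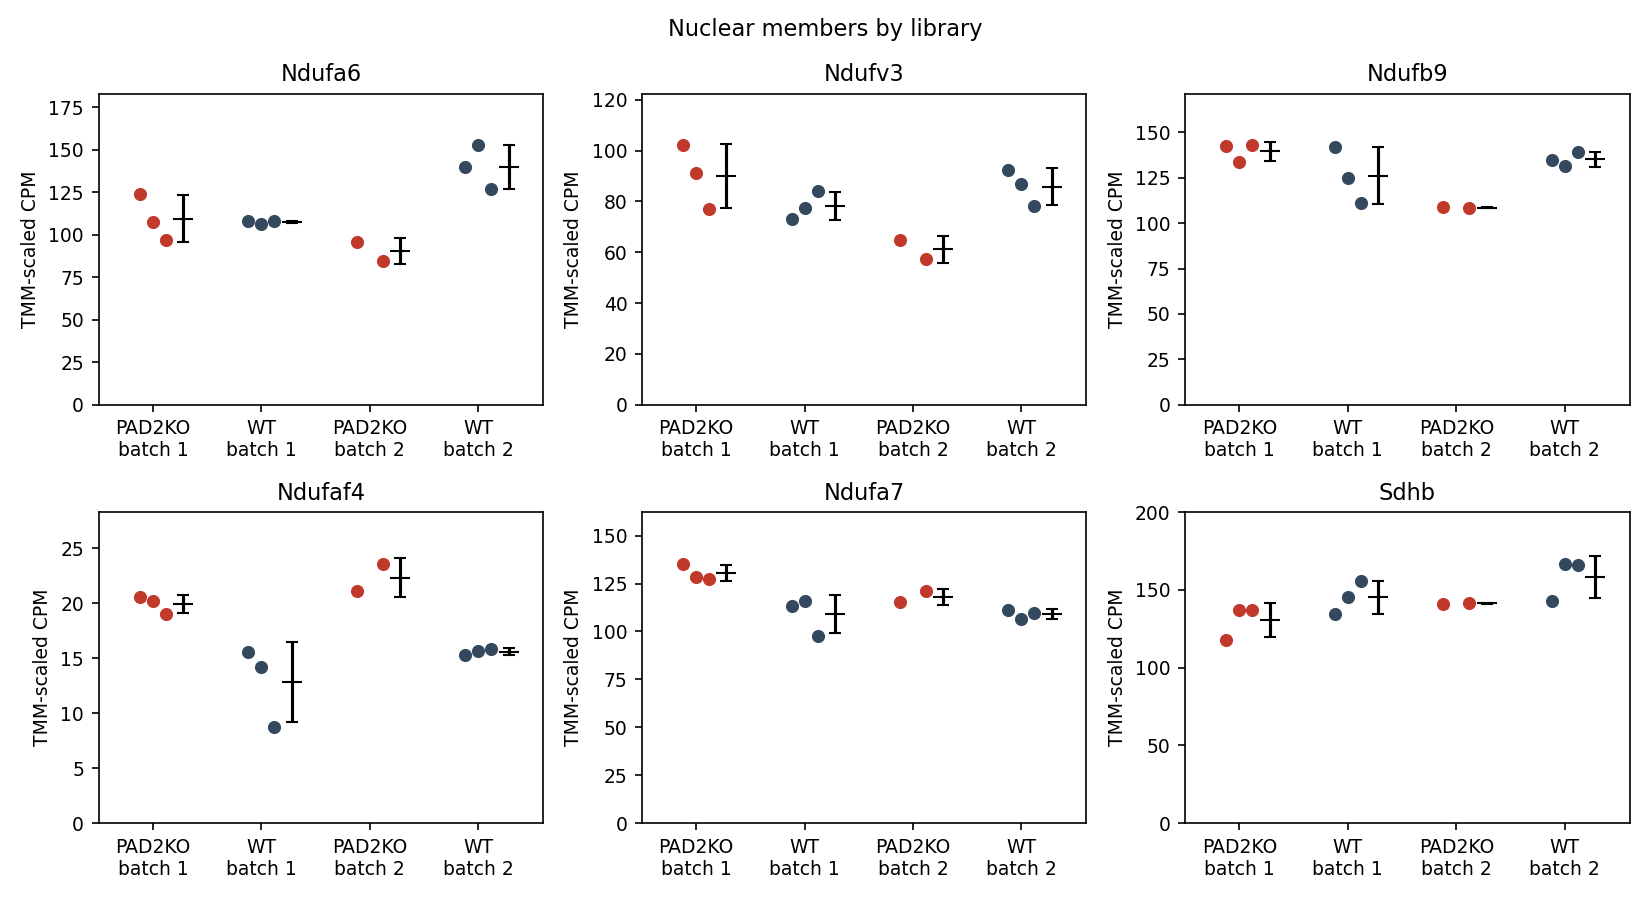
TMM-scaled CPM (vertical axes, from 0) of 6 nuclear members by genotype and batch, PAD2KO left of WT; points are libraries, bars are mean ± SD. Ndufa6, Ndufv3 and Ndufb9 are low in both PAD2KO libraries of batch 2, and Ndufaf4 is high in PAD2KO of both batches.

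Of the assembly factors with the Nduf prefix, 7 of 8 were tested, with medians of -0.0044 and 0.19. Ndufaf4, which helps to join the early membrane part of complex I, had the highest fold change of the 7 in both batches. It had 20.6, 20.2 and 19.0 CPM in PAD2KO, against 15.5, 14.2 and 8.74 CPM in WT of batch 1 and 21.1 and 23.6 CPM in PAD2KO, against 15.3, 15.7 and 15.8 CPM in WT of batch 2, so that in CPM all 5 PAD2KO libraries stood above all 6 WT libraries. In the deposited TPM they did not: the PAD2KO libraries had 9.22 to 12.9 TPM, and WT 6, at 19.1 TPM, stood above all of them. The log2 fold changes were 0.63 ± 0.27 (adjusted p = 0.854) and 0.52 ± 0.29 (adjusted p = 0.464), and in the fit of both batches together 0.58 ± 0.19 (adjusted p = 0.419); none was called. At 10.1 TPM it is the least abundant tested member, and WT 4 stood apart from the other WT libraries. Like Padi2, the gene lies on chromosome 4, but it is not a neighbour.

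The nearest respiratory chain gene to Padi2 is Sdhb, the iron-sulphur subunit of complex II, the very next protein-coding gene in GRCm38.p6 order. It had 118, 137 and 137 CPM in PAD2KO, against 134, 146 and 156 CPM in WT of batch 1, and 141 and 141 CPM in PAD2KO, against 143, 167 and 166 CPM in WT of batch 2. The log2 fold changes were -0.15 ± 0.12 and -0.16 ± 0.13, alike in size and sign, with groups that overlapped in batch 1 and not in batch 2, where both PAD2KO libraries lay a little under WT 5 in CPM. In TPM, both PAD2KO libraries lay above WT 5. Neither was called (adjusted p = 0.963 and 0.655). The other complex II genes, Sdha, Sdhc and Sdhd, lay between -0.05 and 0.14 in batch 1 and between -0.22 and 0.04 in batch 2.

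Complex III was level in batch 1, with a median of 0.02 over 9 genes, and slightly under 0 in batch 2, at -0.11. Uqcrh, the hinge protein that docks cytochrome c1, had 107 and 123 CPM in PAD2KO, against 128, 126 and 184 CPM in WT of batch 2, a fold change of -0.33 ± 0.15 (adjusted p = 0.332). WT 7 stood well above WT 5 and WT 6. Uqcr10, a small subunit, went the other way at 0.25 ± 0.18, with 57.6 and 67.6 CPM in PAD2KO, against 51.7, 52.5 and 53.9 CPM in WT, and Uqcrq was at 0.23 in batch 1 and -0.11 in batch 2. Uqcr11, the complex III gene with the most TPM (526), had 0.10 and -0.16. None of them was called.

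For complex IV the table shows which isoforms these fibroblasts use, and none of the 13 tested genes was called by genotype. Ndufa4, first described as a complex I subunit and now counted with complex IV, led all nuclear members with 1078 TPM, followed by Cox4i1 at 887 and Cox8a at 837 within the complex. The isoforms known from heart and skeletal muscle were nearly silent: Cox6a2 had 0 counts in all 11 libraries, Cox8b had 1.05 TPM and Cox7a1 3.83 TPM, against 665 for Cox6a1 and 543 for Cox7a2. Those known from testis, Cox7b2 and Cox8c, had 0 counts, whereas Cox6b2, also known from testis, had 49.2 TPM beside 686 for Cox6b1. A count of 0 allows at most 2.11 to 3.12 CPM in a library of these depths, counting error only.

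Cox4i2, an oxygen-sensitive isoform described in lung, was at 0 to 14.9 TPM per library, mean 4.58, and the hypoxia-induced Ndufa4l2 at 0.229 TPM, both too low to test. The 13 tested complex IV genes had medians of 0.07 and -0.07. Cox5b, which binds zinc, had 126, 127 and 113 CPM in PAD2KO, against 119, 145 and 151 CPM in WT of batch 1, a fold change of -0.18 ± 0.13, and -0.16 in batch 2. Cox6b1 and Cox8a were free of overlap in CPM in batch 2 (Cox8a also in TPM), at -0.15 ± 0.13 and -0.20 ± 0.12, lower by value in PAD2KO and not called (adjusted p = 0.691 and 0.532).

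In complex V, the catalytic beta subunit Atp5f1b was the most abundant, at 973 TPM. It had 1021, 1153 and 1086 CPM in PAD2KO, against 1104, 1092 and 1136 CPM in WT of batch 1, and 1263 and 1332 CPM in PAD2KO, against 1205, 1251 and 1151 CPM in WT of batch 2, with fold changes of -0.03 ± 0.09 and 0.11 ± 0.10. The c ring, which rotates as protons pass, has 3 genes for the same mature protein: Atp5mc3 and Atp5mc1 carried 362 and 315 TPM, and Atp5mc2 only 3.11 TPM. Atp5if1, the inhibitor that blocks the enzyme from running backwards, had 140.0, 138 and 139 CPM in PAD2KO, against 162, 145 and 163 CPM in WT of batch 1, where PAD2KO lay under WT in every library, and 141 and 146 CPM in PAD2KO, against 170.3, 135 and 149 CPM in WT of batch 2, where it did not. Its fold changes of -0.17 ± 0.12 and -0.08 ± 0.13 were not called. The medians of the 17 tested complex V genes were 0.04 and -0.08.

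Several other subunits had groups free of overlap in CPM without a call. In batch 1 these were Ndufb6 of the complex I membrane arm (0.17 ± 0.13), Atp5pf of the ATP synthase stalk (0.19 ± 0.12) and Sdha (0.13 ± 0.10), all higher by value in PAD2KO. In batch 2, Ndufs6, Atp5f1c and Atp5pb were higher by value in PAD2KO, at 0.25 ± 0.23, 0.14 ± 0.12 and 0.08 ± 0.12. Ndufb1, Atp5mj and Atp5pd were lower by value, at -0.47 ± 0.22, -0.19 ± 0.15 and -0.29 ± 0.14. In TPM, Atp5pf overlapped in batch 1, where WT 4, at 569.1, lay above all PAD2KO libraries. Atp5pb overlapped in TPM in batch 2, where WT 5, at 333.9, lay above both PAD2KO libraries. The other subunits listed so far in this paragraph stayed free of overlap in TPM. They were picked, after their values were seen, from the genes free of overlap counted above. Of those named here, none was free of overlap in both batches. Ndufa7 and Ndufaf4 were in CPM, with PAD2KO the higher each time. Of all tested genes, 5.51% in batch 1 and 15.2% in batch 2 were higher in this way. The share that was so in both batches was not counted, so no weight can be put on these genes being so.

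11 of the nuclear members did not pass the count filter: Atp5mc2, Cox4i2, Cox6a2, Cox7a1, Cox7b2, Cox8b, Cox8c, Ndufa4l2, Ndufaf6, Ndufb11b and Ndufs6b. Ndufb4, Ndufb4b and Ndufb4c have related symbols, and how far they share sequence was not tested. Ndufb4b ran from 0 to 19 counts. The summed counts of the 3 were 71, 61 and 55 in PAD2KO, against 62, 54 and 50 in WT of batch 1, and 43 and 60 in PAD2KO, against 67, 44 and 25 in WT of batch 2.

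Between batches, within a genotype, few members moved although much of the transcriptome did. In PAD2KO, 3 of 102 members were lower in batch 2 than in batch 1 past the threshold and 0 were higher, where 8.29% of all tested genes were lower and 9.06% higher. They were Atp5f1e, the epsilon subunit of ATP synthase, at -0.66 ± 0.21 (adjusted p = 0.0261), Ndufv3 at -0.56 ± 0.16 (adjusted p = 0.0180) and Sdha at -0.37 ± 0.11 (adjusted p = 0.0255). Sdha had 326 and 389 CPM in PAD2KO of batch 2, against 448, 467 and 468 CPM in PAD2KO of batch 1. In WT, 1 of 102 was called, Ndufa6, higher in batch 2, where 11.5% of all tested genes were higher. Sdha in WT read -0.26 ± 0.10 and did not pass (adjusted p = 0.0703). In PAD2KO, the calls of Atp5f1e and Ndufv3 were lost with DESeq2's test and with length offsets. That of Sdha was lost without the filter on low counts. Over 18 alternatives, the call of Atp5f1e was lost in 4 (among them without PAD2KO 2 or PAD2KO 7), that of Ndufv3 in 5 (without PAD2KO 1, PAD2KO 6 or PAD2KO 7) and that of Sdha in 4 (without PAD2KO 2, PAD2KO 3 or PAD2KO 6), with adjusted p of up to 0.312, 0.252 and 0.354. Without PAD2KO 6, 1 member was called in PAD2KO, and without PAD2KO 1, 2, 3 or 7 in turn, 2 were. In WT, 0 were called without WT 1, WT 3, WT 5 or WT 6, 2 without WT 4 (not Ndufa6) or PAD2KO 6, and 3 without WT 7.

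Few genes that serve the chain were called. Over all tested genes, 0.112% were called in batch 1 and 2.92% in batch 2, so 0 calls in lists this short say little about their genes. Of the 48 tested assembly factors of the 5 complexes without an Nduf symbol, 0 were called in either batch; medians in batch 1 ran from 0.01 to 0.17, and in batch 2 from -0.10 to 0.17. Among 17 tested genes of mitochondrial DNA replication and transcription, 0 were called and the median was -0.03 in batch 1 and -0.27 in batch 2. The 20 genes of mitochondrial RNA processing (-0.02 and 0.07) and the 77 tested genes of the mitochondrial ribosome (0.04 and -0.05) held 0 calls as well. So did 8 regulators of mitochondrial biogenesis, 18 electron carriers and quinone enzymes, 29 import genes and 14 stress response genes.

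The tricarboxylic acid cycle, which feeds NADH and succinate to the chain, was the only one of these lists with calls in batch 2, with 1 gene higher and 1 lower of 18 tested (1.28% and 1.64% of all tested genes), and 0 in batch 1. Idh3a, the catalytic subunit of the NAD-dependent isocitrate dehydrogenase, averaged 144 ± 0.926 CPM in PAD2KO (SD, n = 2) and 103 ± 8.02 CPM in WT (n = 3), a log2 fold change of 0.48 ± 0.13 (edgeR adjusted p = 0.0442). Pcx, pyruvate carboxylase, which refills the cycle, averaged 56.2 ± 4.96 CPM in PAD2KO and 107 ± 11.03 CPM in WT, a fold change of -0.94 ± 0.17 (edgeR adjusted p = 0.00149). The Pcx call was lost only with length offsets (largest adjusted p 0.180 over 20 alternatives), whereas that of Idh3a held in 9 of 20 (largest adjusted p 0.315) and was lost without PAD2KO 3, PAD2KO 6, PAD2KO 7, WT 3, WT 5, WT 6 or WT 7 in turn. The Idh3a call was also lost with DESeq2's test, with each batch fitted alone, with length offsets and with the replicate block. Smooth muscle markers and Dio2 differ between the genotypes in batch 2 as given above.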

How the data were processed

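RNeasy extraction was followed by SMARTer amplification, per the labels' protocols. The submitters' processing notes name fastp, Salmon 1.3.2, DESeq2 1.46.0 and the build GRCm39; none says whether counting used strand. The authors deposited Salmon's estimated counts, TPM and effective lengths per gene. Effective lengths entered only as offsets in 1 alternative. The 23133 of 56065 entries without a symbol (3.80 to 6.40% of counts) stayed out of totals and tests. The exception was 1 alternative, in which 1 such entry was added to COX3.

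Estimated counts were rounded and fitted with edgeR 4.0.16 (R 4.3.3): TMM scaling, filterByExpr, 1 quasi-likelihood fit over 4 genotype by batch groups and 11 libraries (7 residual degrees of freedom), p-values adjusted over 10731 genes, threshold 0.05. CPM are TMM-scaled except those of cell type markers, which are scaled to library totals alone. Log2 CPM for the residual SD used a prior count of 2, and fold changes used edgeR's default prior count. DESeq2 1.42.0 was an alternative. On simulated data, 69.2% of genes changed by a log2 fold of 1 were recovered in batch 1 and 68.2% in batch 2, and 16.4% and 12.3% at a log2 fold of 0.5. The simulation gave all genes the same dispersion and held no batch difference. These percentages therefore do not describe the mitochondrial mRNAs, whose median residual SD was 0.37, against 0.25 over all tested genes. Members and lists were chosen with earlier results of these data known. The text names all mitochondrial members, Sdhb, called nuclear members, those with the smallest p per direction and batch up to 4, the most abundant of each complex and isoform sets; others were chosen after their values were seen. The values of 1 member are not reported here.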

Additional observations from a re-analysis of the deposited data

Results flagged for a closer look

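Of 90 groups of 5 or 6 libraries of a genotype, 6 held a library far from the others; chance flags about 1 in 20. COX3 in PAD2KO 2, at 41.0 CPM, stood far under the other PAD2KO libraries. The entry with no symbol held 1150.0 counts in that library. It was used only in the alternative that added copies to COX3, ND4L and ATP6. ND4L in WT 7, at 0 CPM, stood far under the other WT libraries, as described with Gm10222 above.

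ATP6 in PAD2KO 2, at 2173 CPM, was low together with the other mitochondrial mRNAs of that library. Ndufaf4 in WT 4, at 8.74 CPM, and Sdhb in PAD2KO 1, at 117.9 CPM, were the lowest of their genotypes by a wide gap. Uqcrh in WT 7, at 183.8 CPM, was the highest.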

How the results depend on the processing

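Across all alternatives, 0 mitochondrial mRNAs were called in either batch. Of 1676 alternative values of the 42 tested named members, 74 had the other sign. Ndufa6 in batch 2 was called in 9 of 11 fits that left out a library and in 8 of 9 others, with adjusted p from 0.00630 to 0.285.

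Length offsets gave 0 nuclear members called in batch 2, 0 between batches in WT and 1 in PAD2KO, a nuclear median of -0.033 in batch 2, and over all genes 2 calls in batch 1, 91 in batch 2, 26 for the difference, 2 for both batches together, 1411 between batches in WT and 858 in PAD2KO. Without a filter on low counts, the difference was called for 1 member (Ndufb4b) and the WT batch contrast for 4; over all genes there were 58 calls in batch 1, 529 in batch 2, 323 for the difference and 142 for both together. Library totals alone gave 2 members between batches in WT and 5 in PAD2KO. DESeq2's Wald test gave 0 and 1 there, and over all genes 31 for both together and 1216 between batches in PAD2KO. Each batch alone gave 22 calls in batch 1. Causes of these shifts were not tested.

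PAD2KO and WT libraries that share a replicate number did not deviate alike from their group means. The correlations of deviations were 0.027, 0.036, 0.030 and 0.013. Groups of 2 or 3 libraries cannot show by this whether such libraries were prepared together. The replicate block gave 1 member for the difference (Ndufb4b), and over all genes 101 for the difference and 8 for both together, with mitochondrial medians of 0.19 and 0.40. Under that block, 3 of 13 mitochondrial mRNAs in batch 1 and 8 of 13 in batch 2 had an unadjusted p under 0.05, and 0 were called (lowest adjusted p 0.0604).

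Leaving out 1 library gave 3 to 20 calls over all genes in batch 1, 61 to 373 in batch 2, 34 to 222 for the difference, 8 to 25 for both together, 1815 to 2377 between batches in WT and 1074 to 1995 in PAD2KO. Members called ran from 0 to 1 for nuclear genes in batch 2, 0 to 3 between batches in WT and 1 to 3 in PAD2KO. Mitochondrial medians ran from -0.04 to 0.34 in batch 1 and 0.12 to 0.38 in batch 2, and nuclear medians from -0.0055 to 0.050 and -0.08 to -0.04. Ratios of PAD2KO over WT ran from 1.00 to 1.25 (batch 1) and 1.06 to 1.298 (batch 2) for the mitochondrial share, 1.01 to 1.05 and 0.955 to 0.977 for the nuclear share, and 0.961 to 1.22 and 1.08 to 1.35 for mitochondrial over nuclear counts. Where leaving out PAD2KO 6 or PAD2KO 7 leaves 1 library, that library is assumed to vary like the other groups.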
